A study of Mus musculus with 4 samples.

Results

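The genes described here are the G2 checkpoint genes around the kinase WEE1: the WEE1-type kinases (Wee1, Pkmyt1), the CDC25 phosphatases (Cdc25a, Cdc25b, Cdc25c), the apical damage kinases (Atr, Atm), the checkpoint kinases (Chek1, Chek2) and the mediator Claspin (Clspn). They were picked out by symbol from a list drawn up with earlier results of these data known, and all 10 were found among the 28440 rows of the count table. RNA was sequenced from 4 mammary gland tumours of a single genotype, MMTV-R26Met, in which the promoter of the mouse mammary tumour virus directs Cre to the mammary epithelium and so switches on a Met transgene at the Rosa26 locus. The labels give no treatment, age, normal gland or control genotype, and leave unsaid whether each tumour was taken from a different mouse. The tumours are therefore 4 samples of 1 group, numbered 1 to 4, and any p-value measures the spread between these samples only.

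Entry into mitosis is driven by the kinase CDK1 bound to cyclin B. WEE1 and PKMYT1 hold CDK1 inactive by phosphorylating it, and the CDC25 phosphatases remove those phosphates. When DNA is damaged or replication stalls, ATM activates CHK2, ATR activates CHK1 with the help of Claspin, and the checkpoint kinases restrain CDC25 and so delay division. Tumour cells that copy their DNA under stress are known to lean on this pause, which is why inhibitors of WEE1, ATR and CHK1 are studied as cancer drugs. Much of this control acts on the proteins through phosphorylation and degradation, which RNA counts do not show.

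The libraries held 35220504 to 42809015 counts. Every pair of them differed by more than counting allows (chi-square of 142 to 415 for each degree of freedom), so none was a copy of another. Expression is given as CPM, counts scaled to a common library size with TMM factors, and a count of 0 allows up to 0.0706 to 0.0865 CPM, depending on the library (3 counts each, counting error only). The epithelial markers that define the labelled tissue were abundant in every tumour, with Epcam, Krt8, Krt18 and Cdh1 summing to 2277, 3421, 2974 and 3494 CPM in tumours 1 to 4. Leukocyte markers (Ptprc, Cd3e, Csf1r, Cd68) summed to 194, 264, 202 and 230 CPM, fibroblast markers (Col1a1, Pdgfra, Dcn, Lum) to 656, 815, 1017 and 1392 CPM, and endothelial markers (Pecam1, Cdh5, Kdr) to 139, 101, 121 and 83.0 CPM. The fibroblast sum is mostly Col1a1, with a mean of 917 CPM. Log2 CPM minus each gene's mean, averaged over the fibroblast markers, was -0.501, 0.167, -0.176 and 0.510. On that measure tumour 3 lay below tumour 2. Adipocyte markers (Adipoq, Plin1, Cidec) summed to 0.517, 7.87, 0.313 and 0.731 CPM, so they were near 0 except in tumour 2. Proliferation markers (Mki67, Top2a, Pcna, Mcm2 to Mcm7, Tpx2, Bub1 and Bub1b) summed to 1597, 1150, 2555 and 1151 CPM, so they were highest in tumour 3. In bulk tissue, fewer cells of a type and less RNA per cell cannot be told apart.

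All 10 checkpoint genes were expressed in all 4 tumours and passed the filter on low counts. Tumours differed in these genes mainly through Pkmyt1, Cdc25b, Cdc25c and Chek1, each with its tumours over 2-fold apart and each highest in tumour 3, whereas Wee1, Cdc25a, Atr and Atm differed by less than 1.4-fold. Of the 10 genes, 0 varied between tumours beyond what genes of similar abundance do (edgeR, Benjamini-Hochberg adjusted p of 1 for each), against 3.63% of the 15808 genes tested. The count was also 0 at an unadjusted p of 0.05, which 8.74% of all genes tested passed, and 0 by DESeq2's rule for dispersion outliers. That rule called only 91 of the 15808 genes, so a count of 0 among 10 genes says little. The median fold between the lowest and highest tumour was 1.63 over the checkpoint genes and 1.73 over all genes tested, and 4 of the 10 were over 2-fold apart, against 37.0% of all genes tested. The differences below are thus descriptions of these 4 tumours and lie within the spread usual for genes of their expression, a biological coefficient of variation of 0.411 over all genes.

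**Figure D1:**
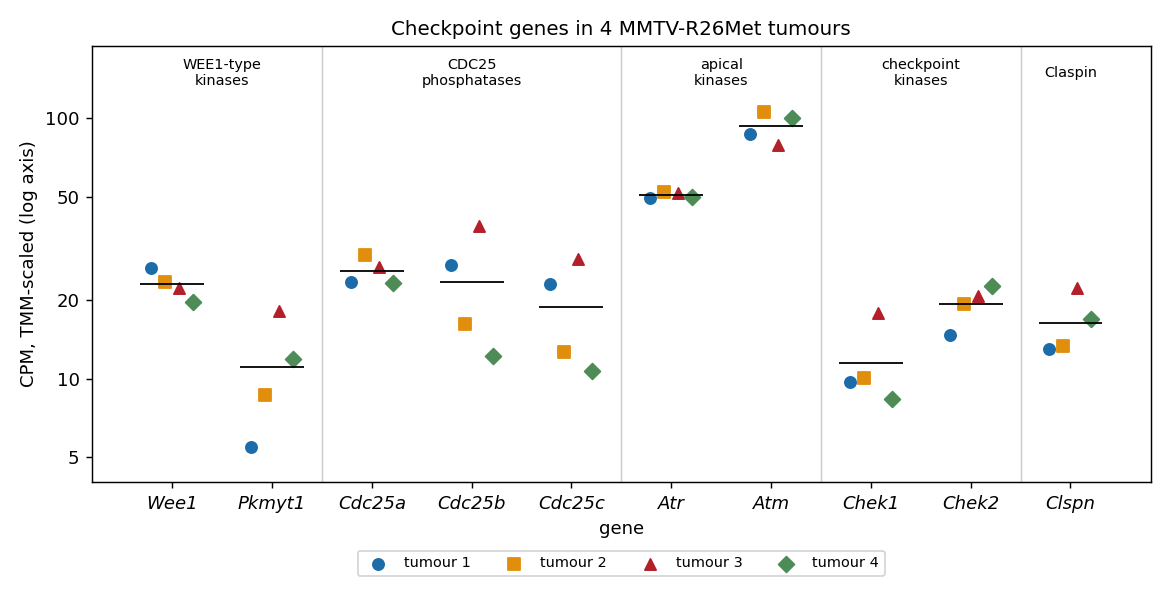
CPM (TMM-scaled, log axis) of the 10 checkpoint genes in each of the 4 tumours, grouped by role, with a line at the mean. Atr lies between 49.6 and 52.2 CPM in all 4 tumours, while Cdc25b runs from 12.2 CPM in tumour 4 to 38.7 CPM in tumour 3.

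Wee1, the nuclear kinase that phosphorylates CDK1 on tyrosine (Entrez gene 22390, chr7:110122059-110143299, plus strand, GRCm38), had 26.7, 23.5, 22.3 and 19.6 CPM in tumours 1 to 4, from 1134, 816, 857 and 806 counts. Tumour 1 was highest and tumour 4 lowest, 1.36-fold apart, and the mean was 23.0 ± 2.92 CPM (SD, n = 4). Among the genes tested, its mean level stood at percentile 52.2 and the SD of its log2 CPM, 0.18, at percentile 16.1. An antisense gene, 1600010M07Rik, overlaps the whole of Wee1. It had 36 to 54 counts in a tumour, and without stated use of strand its reads and those of Wee1 cannot be told apart. The oocyte relative Wee2, which acts in egg meiosis, had 0 counts in all 4 tumours.

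Pkmyt1, the membrane-bound WEE1-type kinase that also phosphorylates CDK1 on threonine (Entrez gene 268930, chr17:23726336-23736735, plus strand, GRCm38), had 5.46, 8.68, 18.1 and 11.9 CPM in tumours 1 to 4, from 232, 301, 696 and 489 counts. Tumour 1 was lowest and tumour 3 highest, 3.32-fold apart, the widest fold among the 10 genes. Its mean was 11.05 ± 5.41 CPM (SD, n = 4), and its range was 2.18-fold without tumour 3. Without tumour 1 it was 2.09-fold, below the 3.16-fold of Cdc25b and the 2.70-fold of Cdc25c. Without tumour 3 Cdc25b was 2.23-fold, also above Pkmyt1, so the place of Pkmyt1 as widest rests on tumours 1 and 3. By SD of log2 CPM over all 4 tumours Cdc25b was the wider (0.742, against 0.728). Pkmyt1 overlaps 550 bases of Paqr4 on the other strand, and Paqr4 had 351, 485, 541 and 1232 counts in tumours 1 to 4. Like Pkmyt1 it was lowest in tumour 1, but it was highest in tumour 4. Without stated use of strand the reads of the overlap cannot be assigned to either gene. The 2 kinases thus had different orders of tumours. Counts of Pkmyt1 over those of Wee1 were 0.205, 0.369, 0.812 and 0.607 in tumours 1 to 4, and the 95% exact binomial intervals did not overlap between any 2 tumours (0.177 to 0.236 in tumour 1 and 0.734 to 0.899 in tumour 3, counting error only).

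Among the CDC25 phosphatases, Cdc25b and Cdc25c varied together and Cdc25a stood apart from them. Cdc25b, which starts the activation of CDK1 before mitosis (Entrez gene 12531, chr2:131186436-131198511, plus strand, GRCm38), had 27.3, 16.3, 38.7 and 12.2 CPM in tumours 1 to 4, a mean of 23.6 ± 11.9 CPM (SD, n = 4). Cdc25c, which acts at mitosis in the nucleus (Entrez gene 12532), had 23.1, 12.7, 29.0 and 10.7 CPM, a mean of 18.9 ± 8.64 CPM (SD, n = 4). Both took the order of tumours 3, 1, 2 and 4 from highest to lowest, with a range of 3.16-fold for Cdc25b and 2.70-fold for Cdc25c. Without tumour 3 the range was 2.23-fold and 2.15-fold, so tumour 1 also stood above tumours 2 and 4. After centring each gene on its mean log2 CPM, the 2 profiles were a root mean square of 0.09 apart (log2), the smallest distance among the 45 pairs of checkpoint genes. It was not set against pairs of all genes, and with 4 tumours close matches are common. Cdc25a, which acts at the start of S phase as well as at mitosis (Entrez gene 12530, chr9:109875518-109893895, plus strand, GRCm38), had 23.5, 29.9, 27.0 and 23.4 CPM, a mean of 25.9 ± 3.08 CPM (SD, n = 4), with tumour 2 highest and a range of 1.28-fold. The makeup of the family therefore differed between tumours. Cdc25b and Cdc25c together had 2.14 and 2.51 counts for each count of Cdc25a in tumours 1 and 3, against 0.971 and 0.981 in tumours 2 and 4. The 95% exact binomial intervals were 1.99 to 2.31 in tumour 1 and 2.33 to 2.70 in tumour 3, and 0.889 to 1.06 in tumour 2 and 0.896 to 1.07 in tumour 4.

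The apical kinases were the most even of the groups. Atr, which senses single-stranded DNA at stalled forks (Entrez gene 245000, chr9:95857597-95953217, plus strand, GRCm38), had 49.6, 52.2, 51.7 and 49.9 CPM in tumours 1 to 4, from 2107, 1809, 1984 and 2050 counts. The tumours were 1.05-fold apart, and the mean was 50.8 ± 1.30 CPM (SD, n = 4). The SD of its log2 CPM, 0.04, lay at percentile 0.177 of all genes tested. The chi-square of its counts over their degrees of freedom, 1.28, was close to that of counting error alone, which is 1. Without scaling beyond library size Atr was 1.10-fold apart and highest in tumour 3. Atm, which answers double-strand breaks (Entrez gene 11920, chr9:53437122-53536828, minus strand, GRCm38), had 87.4, 105.9, 79.2 and 100.3 CPM, a mean of 93.2 ± 12.1 CPM (SD, n = 4). It was highest in tumour 2 and lowest in tumour 3, 1.34-fold apart, with a chi-square over degrees of freedom of 59.6.

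Of the checkpoint kinases, Chek1 was set apart by tumour 3 and Chek2 was not. Chek1, the kinase that ATR activates (Entrez gene 12649, chr9:36708482-36726658, minus strand, GRCm38), had 9.69, 10.04, 17.9 and 8.38 CPM in tumours 1 to 4, a mean of 11.5 ± 4.34 CPM (SD, n = 4). Its 2.14-fold range came down to 1.20-fold without tumour 3. Chek2, the kinase that ATM activates (Entrez gene 50883, chr5:110839800-110874140, plus strand, GRCm38), had 14.7, 19.4, 20.8 and 22.7 CPM, a mean of 19.4 ± 3.41 CPM (SD, n = 4), with tumour 1 lowest and tumour 4 highest. Counts of Chek1 over those of Chek2 were 0.657, 0.518, 0.862 and 0.368 in tumours 1 to 4, a 2.34-fold range between tumours 3 and 4. The 95% exact binomial interval was 0.777 to 0.956 in tumour 3 and 0.325 to 0.417 in tumour 4. Clspn, which brings CHK1 to ATR (Entrez gene 269582, chr4:126556957-126594533, plus strand, GRCm38), had 13.0, 13.4, 22.3 and 16.9 CPM, a mean of 16.4 ± 4.30 CPM (SD, n = 4). Like Chek1 it was highest in tumour 3, and its range of 1.72-fold was 1.31-fold without that tumour. Counts of Chek1 over those of Atr were 0.347 in tumour 3 and 0.168 to 0.196 in the others.

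**Figure D2:**
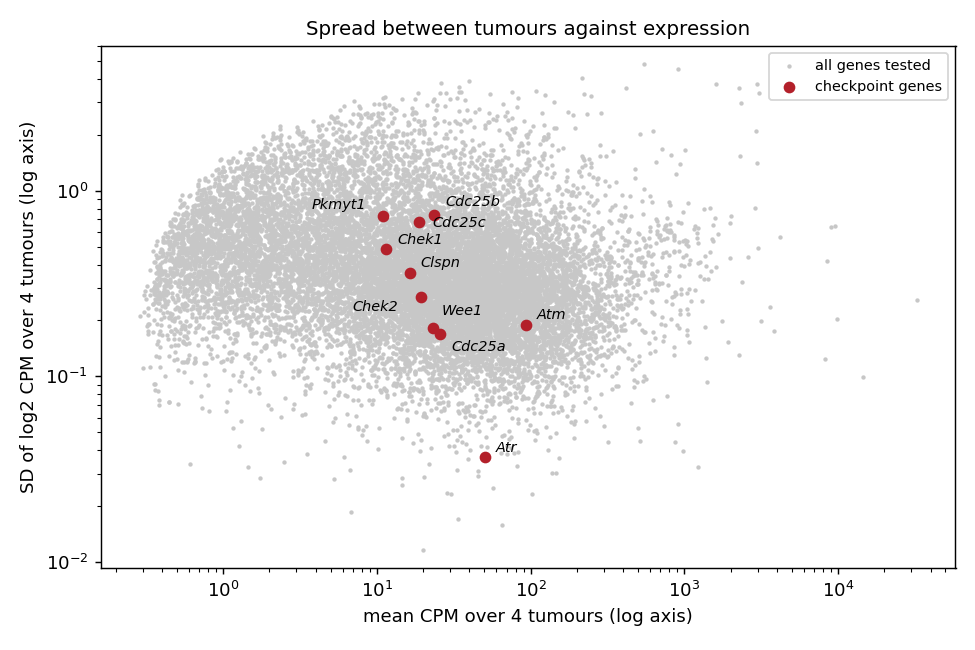
SD of log2 CPM over the 4 tumours (log axis) against mean CPM (log axis) for the 15808 genes tested in grey and the 10 checkpoint genes in red. The checkpoint genes lie within the grey cloud, from Atr near its lower edge (SD 0.04) to Cdc25b (SD 0.74).

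To compare genes with one another, CPM was divided by the exonic length of the longest coding transcript, since longer transcripts give more reads. Per kilobase, the mean level was highest for Cdc25c (9.71 ± 4.44 CPM per kilobase, SD, n = 4) and Atm (9.50 ± 1.24), then Chek2 (8.53 ± 1.497) and Cdc25b (7.64 ± 3.85). Next came Cdc25a (7.14 ± 0.849), Wee1 (6.74 ± 0.853), Atr (6.28 ± 0.160) and Pkmyt1 (5.42 ± 2.65), with Clspn (3.26 ± 0.856) and Chek1 (3.03 ± 1.14) last. Every neighbouring pair in this order had overlapping ranges over the tumours, so no step between neighbours exceeded the spread. Clspn and Chek1, with at most 4.43 and 4.72 CPM per kilobase in any tumour, did lie below all 4 values of Wee1, whose lowest was 5.74, and of Atr, whose lowest was 6.12. The order rests on 1 assumed transcript length per gene.

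Promoter sequence was read for the checkpoint genes because genes of the cell cycle are known to share short promoter motifs: the CCAAT box bound by NF-Y, the CHR element (TTTGAA, or its variant TTCGAA) of genes that peak in G2 and mitosis, and E2F sites (TTTCCCGC, TTTCGCGC, TTTGCCGC and TTTGGCGC) of genes that peak in S phase. RefSeq promoters (GRCm38.p6, 250 bases before to 50 after the start) were matched for 7 of the 10 genes. Those printed are Cdc25b, Chek1 and Clspn, which were highest in tumour 3, and Cdc25a and Atr, which differed little between tumours. For Cdc25a, Cdc25b and Clspn the start in the promoter table lies inside the gene span given above, so part or all of the run lies within that span. Each run is the 250 bases before the table's start, 5′ to 3′ on the gene's strand, and capitals mark every match to a motif on either strand. For Cdc25b and Clspn the 30 bases from the start on follow on a line of their own.
Cdc25b, chr2:131186698-131186947, plus strand: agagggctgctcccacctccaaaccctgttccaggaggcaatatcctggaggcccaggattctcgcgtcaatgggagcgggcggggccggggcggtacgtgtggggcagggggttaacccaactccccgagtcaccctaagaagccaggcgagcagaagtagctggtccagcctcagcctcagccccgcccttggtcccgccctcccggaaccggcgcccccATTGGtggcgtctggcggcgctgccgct
Cdc25b from the start, chr2:131186948-131186977, plus strand: gttatttTTCGAAtatataaggaggtggag
Chek1, chr9:36726659-36726908, minus strand: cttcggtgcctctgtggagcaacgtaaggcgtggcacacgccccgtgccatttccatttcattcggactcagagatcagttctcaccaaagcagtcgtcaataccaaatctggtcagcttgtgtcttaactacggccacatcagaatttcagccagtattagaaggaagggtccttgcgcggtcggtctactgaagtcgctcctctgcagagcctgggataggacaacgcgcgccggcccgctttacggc
Clspn, chr4:126556730-126556979, plus strand: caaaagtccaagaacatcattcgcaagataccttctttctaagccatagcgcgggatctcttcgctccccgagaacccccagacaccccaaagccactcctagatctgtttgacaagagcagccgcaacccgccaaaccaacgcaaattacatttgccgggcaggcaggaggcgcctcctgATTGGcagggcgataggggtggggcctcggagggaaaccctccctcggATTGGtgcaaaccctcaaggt
Clspn from the start, chr4:126556980-126557009, plus strand: tgagcgttgtaccgcgtctggGCGCGAAAg
Cdc25a, chr9:109875329-109875578, plus strand: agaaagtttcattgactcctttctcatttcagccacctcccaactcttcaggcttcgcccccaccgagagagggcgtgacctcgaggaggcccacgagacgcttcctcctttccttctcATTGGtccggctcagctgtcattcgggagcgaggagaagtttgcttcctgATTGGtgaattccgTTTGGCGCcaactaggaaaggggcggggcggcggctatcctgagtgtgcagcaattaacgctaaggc
Atr, chr9:95857347-95857596, plus strand: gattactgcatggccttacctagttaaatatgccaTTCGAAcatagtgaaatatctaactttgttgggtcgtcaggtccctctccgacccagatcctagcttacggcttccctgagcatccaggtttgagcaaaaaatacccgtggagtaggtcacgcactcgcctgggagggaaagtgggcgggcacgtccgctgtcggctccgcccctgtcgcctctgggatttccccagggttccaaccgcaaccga

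Counting the start as base 1 and the base before it as -1, Cdc25b held a CCAAT box read on the other strand at -28 to -24 and the palindrome TTCGAA at 8 to 13. Clspn held 2 CCAAT boxes at -69 to -65 and -21 to -17 and the E2F motif TTTCGCGC on the other strand at 22 to 29. Cdc25a held 2 CCAAT boxes, at -131 to -127 and -81 to -77, and TTTGGCGC at -67 to -60. Atr held TTCGAA at -215 to -210, far from the start, and Chek1 held none of these letters in its window. Of the 7 promoters, 5 held a CCAAT box and 3 an E2F motif (Cdc25a, Chek2 and Clspn), against 37.4% and 2.26% of 32851 promoters of the same length. TTCGAA was present in 1.56% and TTTGAA in 17.9% of all promoters, and none of the 7 held TTTGAA. No match overlapped another.

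The other genes of the pathway gave 49 tested genes out of 50 listed, Wee2 being the exception. Of these 49 genes 0 passed the spread test (edgeR adjusted p of at least 0.962), against 3.63% of all genes tested. The count was also 0 at an unadjusted p of 0.05, against 8.74%, and by DESeq2, against 91 of the 15808 genes. Tumour 3 was the highest tumour for 5 of the 10 checkpoint genes, 30 of the 49 pathway genes and 12 of the 12 proliferation markers, against 29.7% of all genes tested. Tumour 4 was the lowest for 5 of the 10 checkpoint genes and 18 of the 49 pathway genes, against 27.8% of all genes tested. Tumour 2 was the lowest for 0 of the 10 checkpoint genes but likewise for 18 of the 49 pathway genes, against 3111 of the 15808 genes tested. With libraries scaled by size alone the counts highest in tumour 3 were 6, 33 and 12, against 34.8%. The exact order of Cdc25b and Cdc25c, tumours 3, 1, 2 and 4, was also that of 13 pathway genes and 7 proliferation markers, against 8.14% of all genes tested. That order was picked after it was seen in Cdc25b and Cdc25c, and genes of the cell cycle are not independent of one another.

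**Figure D3:**
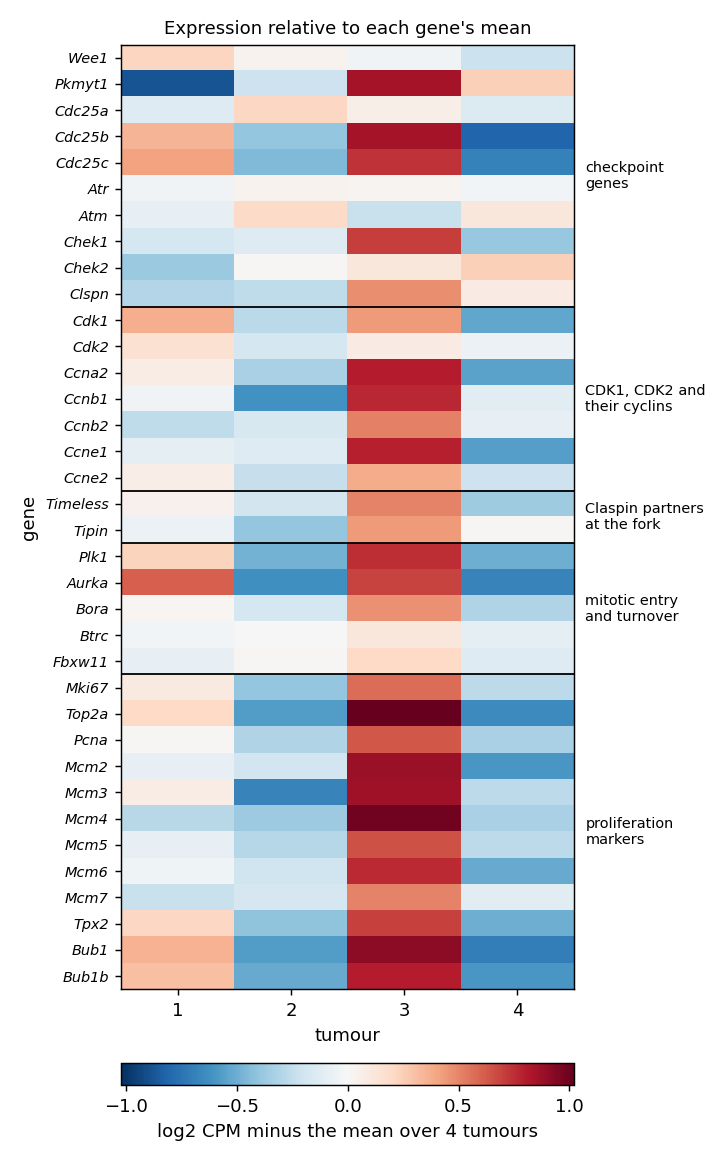
Log2 CPM minus each gene's mean over the 4 tumours for the checkpoint genes, CDK1, CDK2 and their cyclins, the partners of Claspin, the genes of mitotic entry and turnover, and the proliferation markers, with 1 column per tumour. Tumour 3 is above the gene's mean for all 12 proliferation markers, and Pkmyt1 runs from -0.88 in tumour 1 to 0.85 in tumour 3.

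In the targets of the checkpoint, CDK1, CDK2 and their cyclins, 6 of 7 genes were highest in tumour 3 and the median fold between tumours was 1.95. Ccna2, cyclin A2, had the highest mean and the largest SD of log2 CPM (0.59) of them, with 83.3, 63.0, 137.6 and 54.2 CPM in tumours 1 to 4. Among the 5 genes of mitotic entry and of WEE1 and CDC25 turnover, all highest in tumour 3, Aurka, the kinase that activates PLK1, had 44.5, 18.8, 47.0 and 18.1 CPM. As in Cdc25b and Cdc25c, tumours 1 and 3 stood above tumours 2 and 4, and the range was 2.59-fold. Fbxw11, a ubiquitin ligase subunit that marks WEE1 and CDC25A for destruction, was far more even, with 138.3, 147.9, 168.2 and 133.3 CPM.

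Upstream of the kinases, the 10 genes of ATR activation had a median fold of 1.75. Topbp1, which switches ATR on, had 104.8, 100.1, 169.6 and 102.2 CPM in tumours 1 to 4, so tumour 3 alone was high, while Atr itself was level. Atrip, the partner that ATR needs to bind DNA, had 3.97, 8.71, 4.01 and 7.92 CPM and so was lower in tumours 1 and 3. The partners of Claspin at the fork were both highest in tumour 3, as Clspn was. Timeless had 21.5, 18.3, 29.6 and 16.2 CPM, and Tipin had 21.6, 17.1, 30.4 and 22.7 CPM. Of the 8 genes around ATM, 6 were highest in tumour 3, where Atm was lowest. Trp53bp1, a protein of break repair, had 120.3, 90.3, 124.5 and 60.9 CPM, and H2afx, the histone that ATM marks at breaks, had 75.1, 49.2, 105.9 and 46.8 CPM.

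Genes that act on CDC25 or CDK1 by other routes spanned narrow and wide ranges. The 7 proteins of the 14-3-3 family, which bind phosphorylated CDC25, had a median fold of 1.39. Ywhaz had 605.3, 654.1, 588.7 and 648.7 CPM in tumours 1 to 4. Sfn, the epithelial 14-3-3 sigma induced by p53, was the exception with 25.1, 35.7, 17.4 and 53.9 CPM, lowest in tumour 3. The Greatwall and PP2A genes had a median fold of 1.22. PP2A removes the phosphates that CDK1 places on its targets, and Greatwall, acting through ENSA and ARPP19, inhibits PP2A during mitosis. Ensa had 83.9, 76.6, 91.0 and 92.1 CPM. Mastl, the Greatwall kinase itself, had 25.3, 20.4, 37.4 and 25.1 CPM. It was the only 1 of these 5 genes highest in tumour 3, while 3 were highest in tumour 4. The 5 genes of the p53 arm had a median fold of 1.74, close to the 1.73 of all genes tested. Trp53 had 92.5, 70.1, 81.8 and 53.04 CPM, and Gadd45a, a stress gene that can restrain CDK1, had 23.9, 12.2, 30.3 and 9.60 CPM, in the tumour order of Cdc25b. Gadd45a was the only 1 of the 5 p53 genes highest in tumour 3.

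Since proliferation markers were highest in tumour 3, each checkpoint gene was also set against their summed level, a choice made after the values were seen. Per 1000 CPM of the 12 markers, Chek1 had 6.07, 8.73, 7.02 and 7.28 CPM in tumours 1 to 4, and its range of 2.14-fold became 1.44-fold. The range of Cdc25b was 1.61-fold and that of Cdc25c 1.55-fold on this scale, with tumour 1 highest and tumour 4 lowest for both. Wee1 moved the other way. It had 16.7, 20.5, 8.74 and 17.1 CPM per 1000 CPM of markers, so tumour 3 was lowest, and the range was 2.34-fold instead of 1.36-fold. Tumour 3 was lowest on this scale for Cdc25a, Atr, Atm and Chek2 as well, with ranges of 2.24- to 2.97-fold. The summed markers, which are the divisor, were 2555 CPM in tumour 3 and 1150 to 1597 CPM elsewhere. A gene that is level in CPM is therefore lowest in tumour 3 on this scale by construction. For a gene high in tumour 3, the same divisor brings that tumour down relative to the others, also by construction. The narrower ranges of Chek1, Cdc25b and Cdc25c thus do not show a part of proliferation. Clspn, at 8.11, 11.6, 8.71 and 14.7 CPM per 1000 CPM of markers, had a range of 1.81-fold, against 1.72-fold in CPM, and tumour 4 in place of tumour 3 was highest. Pkmyt1 stayed wide, at 3.42, 7.55, 7.10 and 10.3 CPM per 1000 CPM of markers, with tumour 1 still lowest. Its highest tumour became 4, where the overlapping Paqr4 had most counts. The part of proliferation in these differences was not tested.

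**Figure D4:**
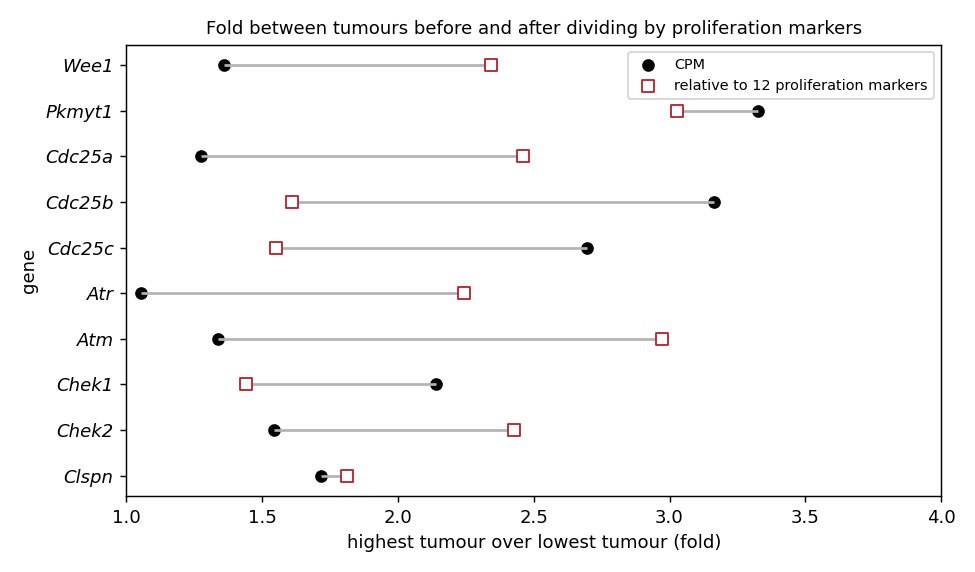
Fold between the lowest and highest tumour for each checkpoint gene in CPM (black points) and relative to the summed 12 proliferation markers (red squares). Cdc25b, Cdc25c and Chek1 have smaller folds relative to the markers (1.61 for Cdc25b, against 3.16 in CPM), while Wee1, Cdc25a, Atr, Atm and Chek2 have larger ones and Clspn changes little (1.81, against 1.72 in CPM).

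Counts of the inhibitory kinases were set against those of the phosphatases or of Cdk1 as ratios within a library. Such ratios need no scaling between tumours. They are not corrected for transcript length, so they can be compared between tumours but do not give relative amounts of RNA. Counts of Wee1 over the sum of the 3 Cdc25 genes were 0.361, 0.400, 0.236 and 0.423 in tumours 1 to 4, so tumour 3 was lowest and its 95% exact binomial interval (0.219 to 0.254) lay below the others. With Pkmyt1 added to Wee1 the ratios were 0.434, 0.548, 0.428 and 0.680, and the intervals of tumours 1 and 3 overlapped (0.407 to 0.463 and 0.403 to 0.454). In tumour 3 the lower share of Wee1 thus stood beside the highest level of Pkmyt1. Counts of Wee1 over those of Cdk1, its substrate, were 0.324, 0.447, 0.260 and 0.446, lowest again in tumour 3. In CPM, Wee1 itself was not lowest in tumour 3 (22.3 CPM, against 19.6 CPM in tumour 4). The divisors, the summed Cdc25 genes (94.6 CPM) and Cdk1 (86.0 CPM), were highest there. Counts of Pkmyt1 over those of Cdk1 were 0.0663, 0.165, 0.211 and 0.271, lowest in tumour 1 and 4.08-fold higher in tumour 4. Paqr4, which overlaps Pkmyt1, also had most counts in tumour 4, and the part of shared reads was not tested. Intervals cover counting error only, and with 1 library per tumour these ratios were not tested between tumours, apart from the check for a single distant tumour in the closing section.

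**Figure D5:**
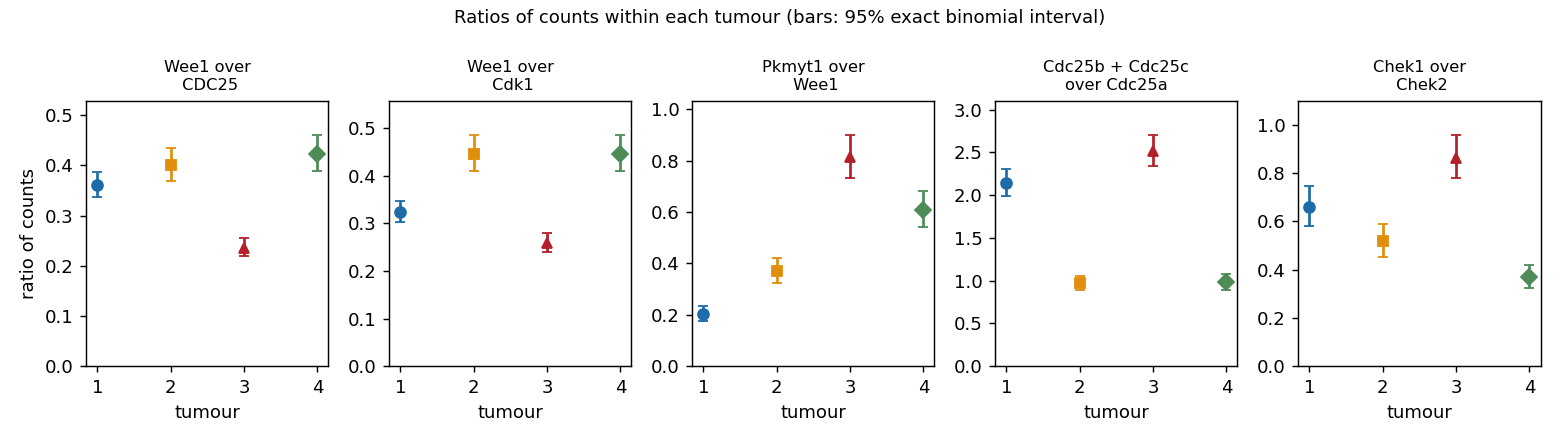
Ratios of counts within each tumour, with 95% exact binomial intervals, for Wee1 over the summed Cdc25 genes, Wee1 over Cdk1, Pkmyt1 over Wee1, Cdc25b and Cdc25c over Cdc25a, and Chek1 over Chek2. Tumour 3 has the lowest Wee1 ratios (0.236 and 0.260) and the highest Pkmyt1 over Wee1 (0.812).

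The genes whose profile was most like that of Wee1, by root mean square distance of centred log2 CPM over the 4 tumours among 11030 named coding genes with at least 5 CPM, were Cplane1 (0.013), Asb7 (0.016), Gtf3c1 (0.021), Tmed7 (0.021) and Srp68 (0.022). For Clspn they were Dse (0.021), Pcif1 (0.031) and Flt1 (0.040). With 4 tumours and so many genes, close matches are common, and these names describe likeness of profile only.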

How the data were processed

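Bulk RNA was sequenced from 4 mammary gland tumours; per the labels' protocols, libraries were made from poly-A RNA by fragmentation and random-primed synthesis and sequenced in paired-end mode on a NovaSeq X. What the authors deposited is a table of raw counts, 1 row per Entrez gene, without normalization. FastQC and the genome builds named GRCm38 and mm10 appear in the authors' steps, per the submitters' processing notes; the sources used here name no aligner, counter, annotation or use of strand. Of 28440 rows, 24480 (86.08%, with 97.86% of counts) found a symbol in RefSeq's GRCm38.p6 table, and H2afx was matched through its current symbol H2ax. The number of per-sample columns not used was 0.

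The analysis used edgeR 4.0.16 (R 4.3.3). Its filterByExpr function with 1 group (minimum count 10, total 15) left 15808 genes. Library scaling was by TMM. With no groups to compare, no quasi-likelihood contrast exists. A negative binomial model with an intercept alone was fitted to each gene at the trended dispersion, the deviance gave a chi-square p (3 degrees of freedom), and p was adjusted over all 15808 genes (threshold 0.05). Log2 CPM used a prior count of 2. Exonic lengths came from GENCODE for GRCm38 (longest coding transcript of the basic set). The scripts were tested on simulated data. Alternatives were RLE scaling, library size alone, other count filters, Holm adjustment, DESeq2 1.42.0, other prior counts and leaving out each tumour.

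The members, gene lists and tests were chosen with earlier results of these data known. Named genes were the 10 members, from each pathway list the tested gene with the highest mean and that with the largest SD, and the nearest profiles to Wee1 and Clspn; Mki67, also in the rule, is part of the proliferation markers. Cdk1, Wee2, Paqr4, 1600010M07Rik and the marker genes are named besides, as are Spef1, Gm3550 and Gm16794. Those overlap Cdc25b (334 bases), Cdc25c (1656 bases) and Atr (9737 bases) on the other strand, where shared reads cannot be assigned either. One listed leukocyte marker is not reported here and stays out of the sums.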

Additional observations from a re-analysis of the deposited data

Results flagged for a closer look

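Of 36 values checked (27 genes and 9 ratios), 2 had 1 tumour far from the other 3, judged by the gap to the nearest other tumour over the whole range (Dixon's limit for 4 samples, which chance passes in about 1 in 20 groups). For Topbp1, the activator of ATR, the gap took 0.933 of the range, since tumour 3 had 169.6 CPM and the others 100.1 to 104.8 CPM. For counts of Chek1 over those of Atr it took 0.845 of the range, with 0.347 in tumour 3 and at most 0.196 elsewhere. Proliferation markers were also highest in tumour 3, and their part in either value was not tested.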

How the results depend on the processing

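The count of checkpoint genes past the spread test was 0, and that of other pathway genes 0, under RLE scaling, scaling by library size, a floor of 5 CPM on the mean, no count filter, DESeq2's dispersion outliers, Holm adjustment and without each tumour in turn. The spread of single checkpoint genes was recomputed 80 times under other scalings, prior counts or without 1 tumour, and the lowest edgeR adjusted p was 0.99. Prior counts enter the SD of log2 CPM but not p, and Holm adjustment can only remove calls. Neither could therefore have added a call, and only the other alternatives bear on these counts. Of all genes tested, 574 passed, against 895 with no count filter, 198 with Holm adjustment, 91 by DESeq2 and 367 to 417 without 1 tumour (367 without tumour 4); the cause was not tested. The mean log2 ratio of WEE1-type kinases to CDC25 was -0.96, or -1.10 to -0.88 without 1 tumour. It was -0.49 with mean log2 CPM in place of summed counts and -1.53 with Wee1 alone, which are other quantities by construction. With mean log2 CPM the lowest tumour was 1 (-1.03, and -0.63 in tumour 3) and tumour 4 stood at 0.07, whereas summed counts gave -1.20 in tumour 1, -1.22 in tumour 3 and -0.56 in tumour 4. No paired analysis was possible because the 4 tumours form 1 group.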
